A study of Mus musculus with 6 samples.

Results

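Genes of the Ly6/uPAR domain family were examined in RNA sequencing of mouse intestinal crypt stem cells with and without circEZH2_005 overexpression. The 8 genes Ly6a, Ly6c1, Ly6d, Ly6e, Gml, Lypd8, Plaur and Cd59a, of 28752 listed, were found by their gene symbols. They were selected on results of this same comparison of circEZH2_005 with vector, so their differences between the groups are given as a description, without a test. Another 30 genes of the family, listed in the same table, were tested where their counts allowed.

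The sample titles name intestinal crypt stem cells. For Lgr5+ intestinal stem cells (ISCs), the study's methods describe sorting by fluorescence from Lgr5-GFP mice and growth into organoids. They do not say separately how the sequenced cells were obtained. The vector samples (n = 3) carried the genotype label WT, and the others (n = 3) overexpressed circEZH2_005, a circular RNA, from an adenovirus. Cells were infected for 72 h, and all 6 samples were then exposed to H/R (hypoxia and reoxygenation), with hypoxia of 4 h at 2% O2, so no sample kept in normal oxygen enters the comparison. The study's methods give a strain (C57BL/6), a sex (male) and an age for its mice in general, and the Lgr5-GFP donors are not described separately. Its reporting summary speaks of independent biological replicates for all experiments, but whether the sequenced samples of a group came from separate mice or separate cultures is not given in the sources used here, and p-values therefore measure the spread between these samples, which may be technical.

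The Ly6/uPAR domain is a small fold held together by disulphide bonds, from which fingerlike loops extend, and most of its members hang on the outer cell surface by a glycosylphosphatidylinositol (GPI) anchor. Many of the mouse Ly6 genes lie in a cluster on chromosome 15 and are textbook surface markers of blood cell lineages. Others work at epithelia: Lypd8 is released into the gut lumen, where it binds bacterial flagella. The family also holds the urokinase receptor (Plaur), which focuses plasmin formation at the cell surface, and the complement inhibitor Cd59a.

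A shared feature of the family can be read from the coding sequences of GENCODE M21 (GRCm38). All 8 genes held a stretch of 24 bases that codes for a pair of cysteines, any 4 residues, then cysteine and asparagine, which stands near the end of the domain. The pattern was also found in 27 of 29 other family genes with a coding sequence, and in 63 of all 21815 coding genes (0.289%). It occurred 2 times in Plaur. The stretches below are shown for Ly6c1, its paralogs Ly6c2 and Ly6g, and those of the 8 genes outside the chromosome 15 cluster. Of the 2 paralogs, Ly6c2 differed from Ly6c1 in direction. Ly6a, for which RefSeq's table held no promoter window, and further paralogs are not shown. Capitals mark the codons of cysteine and asparagine.
Ly6c1: TGTTGCagcgaagacctcTGCAAT
Ly6c2: TGTTGCagcgaagacctcTGCAAT
Ly6g: TGTTGCaaggaagacctcTGCAAT
Lypd8: TGCTGCcaaggagagtccTGCAAT
Plaur, first: TGTTGCaactacacccacTGCAAT
Plaur, second: TGCTGCcacggcagcggcTGTAAC
Cd59a: TGCTGCcagtttaacttgTGTAAC
The stretch of Ly6c1 was the same as that of its paralog Ly6c2, base for base.

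Paralogs differed in how alike they were. Gml and Gml2 had 86.55% identical positions in an alignment of their coding sequences, Ly6a and Ly6c1 66.67%, Ly6c1 and Ly6c2 79.91%, and Plaur and Cd59a 26.81%. Similar genes can share reads. Of the 50-base windows of their transcripts, 32.77% of Ly6c1, 18.97% of Ly6a, 18.71% of Gml and 3.87% of Cd59a also occurred in a transcript of another gene. For Ly6d, Ly6e, Lypd8 and Plaur this share was 0%. How reads shared between genes were counted is not given in the sources used here, so the split between such paralogs is uncertain.

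The authors' counts summed to between 71506487 and 79919893 per sample, and 3 counts, the limit that a count of 0 allows, came to between 0.0377 and 0.0419 CPM (counts relative to library size, with edgeR's TMM scaling). Floors of this kind cover counting error only. Epithelial markers summed to between 10040 and 10500 CPM with vector and between 12640 and 17550 CPM with circEZH2_005, and crypt stem cell markers to between 2063 and 2915 CPM and between 1412 and 2048 CPM. The groups did not overlap in either sum, and the part of this shift in the levels of the 8 genes was not tested. Of 10 stem cell markers, Lgr5 (log2 ratio -0.88, adjusted p = 0.0434) and Smoc2 (-0.81, adjusted p = 0.0203) fell with circEZH2_005, and the most abundant, Olfm4, had -0.42 (adjusted p = 0.314, each from edgeR). These 2 calls stand beside 3.67% of all genes tested. The log2 ratio was positive in 2 of the 10, Axin2 (0.31, adjusted p = 0.219) and Rnf43 (0.32, adjusted p = 0.2215, both from edgeR). Both were named after their values were seen. In bulk RNA, more or fewer cells of a type and more or less RNA per cell cannot be told apart. Of 10 epithelial markers, Krt20 (1.18, adjusted p = 0.0207) and Krt8 (0.57, adjusted p = 0.0301) rose, and Fabp2, the most abundant, had 0.98 (adjusted p = 0.0622, each from edgeR). All 10 had a positive log2 ratio, where 9174 of the 18348 genes tested had one, and 2 passed, beside the same 3.67%. Without vector sample 1 or vector sample 3, 0 of the 4 that passed (Lgr5, Smoc2, Krt20 and Krt8) did so. Lgr5 passed without vector sample 2 alone. Reads from genes that overlap Lgr5, Smoc2 or Krt8 on the other strand may be among their counts, since the strand setting is not known. Vector sample 2 stood apart. Its correlation of log2 CPM across genes was 0.969 to circEZH2_005 sample 1 and 0.971 to circEZH2_005 sample 3, though 0.965 to circEZH2_005 sample 2, beside 0.970 to each of vector samples 1 and 3, while those 2 had 0.979 with each other. Results that rest on it are given with and without it.

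Across all genes, 493 were higher and 181 lower with circEZH2_005 at an adjusted p-value under 0.05 (edgeR's quasi-likelihood test, Benjamini-Hochberg adjustment over 18348 genes). That is 3.67% of the genes tested (2.69% higher and 0.986% lower). With limma on log2(FPKM + 1) the split was 310 higher and 292 lower (4.53% of 13278 genes), and on log2(FPKM + 0.1) the share was 2.18%. DESeq2 called 13.9% of the 16459 genes to which it gave an adjusted p-value, and on simulated counts 25.8% of its calls were unchanged genes, beside 9.49% for edgeR. Those counts were simulated from the spread that edgeR had fitted, so the shares need not hold for the real counts. For counts at an unadjusted p under 0.05, which appear further on, no share over all genes is given. Log2 ratios are of circEZH2_005 over vector, and values listed for a group are in the order of samples 1, 2 and 3. All 8 Ly6/uPAR genes passed the filter on low counts, and 1 of them, Gml, was past the threshold, in the lower direction, beside the 3.67% of all genes. In 3 of the 8 (Gml, Ly6d and Ly6c1) the groups did not overlap, beside 30.6% of all genes tested. Without vector sample 2 the count past the threshold was 3 of 8 (Gml, Ly6c1 and Ly6e), beside 7.48% of all genes in that fit, and without vector sample 1, vector sample 3, circEZH2_005 sample 2 or circEZH2_005 sample 3 it was 0. Since the genes were chosen by this contrast, nothing follows from these counts about the family. The median log2 ratio was -0.39 over the 8 genes and 0.00 over all genes tested.

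Levels spanned a wide range, and they are compared between genes per length, in FPKM (fragments scaled for transcript length and library size). In vector samples Lypd8 stood at 2534 ± 472 FPKM (SD, n = 3) and ranked 19 of the 28752 genes by mean FPKM over all samples. Ly6a followed with 67.8 ± 39.9 and Ly6e with 59.5 ± 37.4 FPKM (SD, n = 3 each), and their ranges overlapped. The next were Ly6d with 2.94 ± 0.584, Gml with 2.35 ± 0.656 and Ly6c1 with 1.29 ± 0.914 FPKM (SD, n = 3 each). Plaur with 0.476 ± 0.136 and Cd59a with 0.459 ± 0.131 FPKM (SD, n = 3 each) came last. From Ly6d downwards each gene overlapped the next in the order, whereas Lypd8 and Ly6e lay clear of the gene below them. In circEZH2_005 samples Lypd8, Ly6a, Ly6e and Ly6d kept these places, with 2478 ± 311, 121 ± 57.0, 94.1 ± 21.1 and 1.26 ± 0.703 FPKM (SD, n = 3 each). Below them came Plaur with 0.658 ± 0.206, ahead of Gml with 0.477 ± 0.203, Cd59a with 0.238 ± 0.205 and Ly6c1 with 0.110 ± 0.0743 FPKM (SD, n = 3 each).

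**Figure D1:**
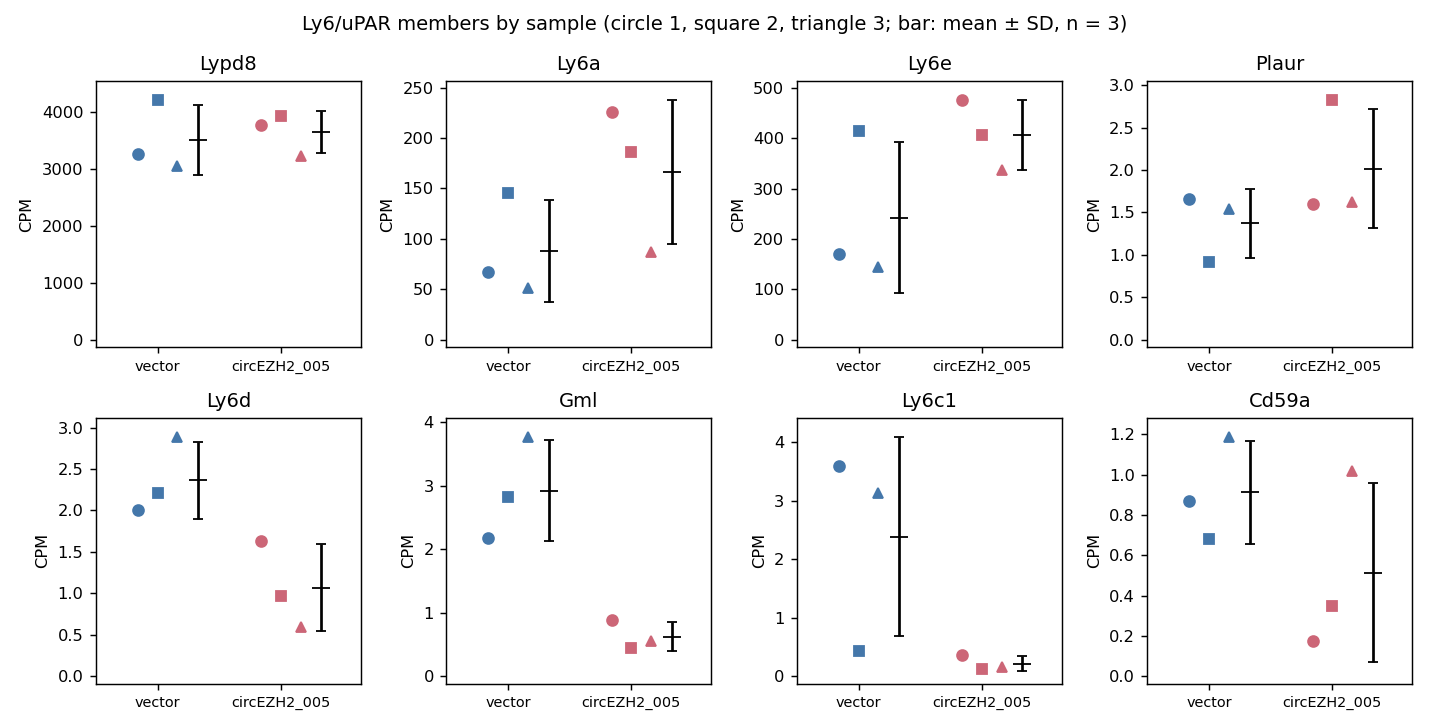
CPM of the 8 Ly6/uPAR genes in each sample (linear y axes that include 0, own scale per gene), vector in blue and circEZH2_005 in red, with sample 1 as circle, 2 as square and 3 as triangle and bars for mean ± SD (n = 3). Gml, Ly6d and Ly6c1 are lower in every circEZH2_005 sample than in every vector sample, and the square of vector sample 2 lies beside the circEZH2_005 samples for Ly6e and Ly6c1.

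Lypd8 (chromosome 11, 58379043 to 58390728, plus strand, GRCm38), which keeps flagellated bacteria off the gut epithelium, had read counts of 236728, 314916 and 239199 with vector. With circEZH2_005 they were 300347, 292915 and 231747. The groups overlapped throughout, and vector sample 2 was the highest of the 6. The log2 ratio was 0.05 (standard error 0.15), and its sign was not stable: it was -0.04 without vector sample 3 and 0.21 without vector sample 2. Its levels lay between 3056 and 4215 CPM.

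Ly6e (chromosome 15, 74955051 to 74959905, plus strand) encodes an interferon-inducible surface protein that restricts the entry of some viruses. It stood at 169.7, 414 and 143 CPM with vector and at 475, 406 and 338 CPM with circEZH2_005. Vector sample 2 was above 2 of the 3 circEZH2_005 samples, and the groups therefore overlapped. Its log2 ratio was 0.75 (standard error 0.38), and 1.38 without vector sample 2.

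Ly6a (chromosome 15, 74994877 to 74998031, minus strand), also known as Sca-1, marks blood stem cells and activated lymphocytes and responds to interferon. It stood at 67.5, 146 and 50.9 CPM with vector and at 226, 186 and 87.0 CPM with circEZH2_005. Again vector sample 2 was the highest vector sample and lay above circEZH2_005 sample 3. The log2 ratio was 0.92 (standard error 0.45), and 1.49 without vector sample 2. The counts of Ly6e made up between 67.8% and 79.5% of the counts of the pair in every sample, without regard to transcript length. In FPKM, Ly6a stood above Ly6e in every sample except circEZH2_005 sample 3, where Ly6a had 61.19 and Ly6e 75.65 FPKM.

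The list of 25 interferon-stimulated genes, which holds neither Ly6a nor Ly6e, had the same order of vector samples. The order of circEZH2_005 samples differed: the list was highest in sample 2, and Ly6e and Ly6a were highest in sample 1. The summed level of the list was 1157, 2885 and 858 CPM with vector and 3569, 5118 and 3288 CPM with circEZH2_005. All 25 had a positive log2 ratio, where 9174 of the 18348 genes tested had one, with a median of 1.32. Only Irf1, a transcription factor of the interferon response, passed the threshold, with a log2 ratio of 1.10 (standard error 0.23, adjusted p = 0.0472, edgeR). It rose from 179.6, 278 and 150.5 CPM to 363, 494 and 445 CPM, counts to which the overlapping gene Gm17334 on the other strand may add. The most abundant, the GTPase gene Igtp, had a log2 ratio of 1.60 (adjusted p = 0.152, edgeR). Without vector sample 2 the test called 24 of the 25, all higher, beside 7.48% of all genes in that fit. Without each of the other 5 samples in turn it called 0, Irf1 included. The list was chosen with earlier results of these data known, so these counts are a description. By limma 0 were called on either scale, and by DESeq2 7, beside 13.9% of all genes to which it gave an adjusted p-value.

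Markers of lymphocytes, cells that carry Ly6a on their surface, were likewise highest in sample 2 of the vector samples. The 11 markers summed to 60.7, 196 and 74.6 CPM with vector and to 498, 381 and 273 CPM with circEZH2_005. In 8 of the 11 the circEZH2_005 samples were all above the vector samples, beside the 30.6% of all genes, but 0 of 11 passed the adjusted threshold by edgeR, with 8 at an unadjusted p under 0.05. DESeq2 called 7 of them, beside 13.9% of all genes to which it gave an adjusted p-value, and limma 0 on either scale. Without vector sample 2 edgeR called 7, beside 7.48% of all genes in that fit. Their most abundant gene, Cd8a, a surface protein of cytotoxic T cells, had a log2 ratio of 1.79 (adjusted p = 0.057, edgeR). None of the 11 was at 0 in any sample. The part of lymphocytes in the levels of Ly6a and Ly6e was not tested.

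**Figure D2:**
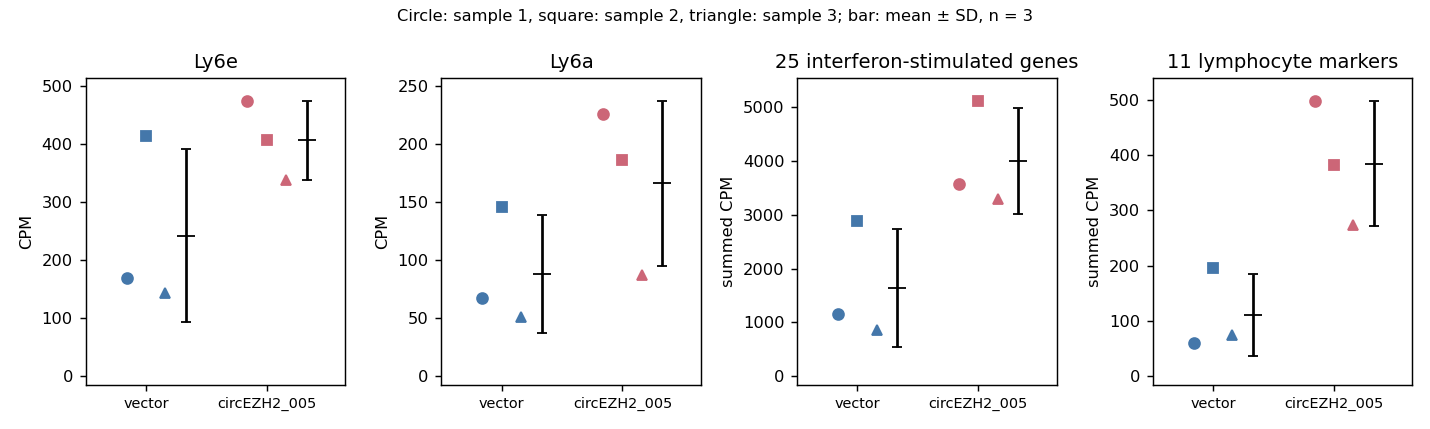
CPM of Ly6e and Ly6a, and summed CPM of the interferon-stimulated genes and of the lymphocyte markers, in each sample (linear y axes that include 0; vector blue, circEZH2_005 red; circle, square and triangle for samples 1, 2 and 3; bars mean ± SD, n = 3). In each panel the square of vector sample 2 lies above vector samples 1 and 3, at 2885 summed CPM for the interferon-stimulated genes beside 1157 and 858.

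Ly6c1 (chromosome 15, 75044018 to 75048830, minus strand) encodes a form of Ly6C, a surface marker of monocytes, endothelium and some T cells. Its read counts were 260, 33 and 246 with vector and 29, 10 and 11 with circEZH2_005. Vector samples 1 and 3 were high, and vector sample 2 lay just above circEZH2_005 sample 1. On the CPM scale the means were 2.39 ± 1.70 and 0.218 ± 0.128 (SD, n = 3 each), a log2 ratio of -3.44 (standard error 0.80). Without vector sample 2 it was -3.93, and on log2(FPKM + 1), which understates the change of low genes, it was -0.95.

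The paralog Ly6c2, the next gene on the chromosome, had a log2 ratio of the other sign. It had read counts of 15, 41 and 22 with vector and of 169, 122 and 49 with circEZH2_005, a log2 ratio of 2.10 that did not pass the threshold (standard error 0.54, adjusted p = 0.0716, edgeR). It passed with DESeq2 (adjusted p = 0.00433) and without vector sample 2 (adjusted p = 0.0412, edgeR). Of the counts that fell on either paralog, Ly6c1 took 94.5%, 44.6% and 91.8% with vector and 14.6%, 7.58% and 18.3% with circEZH2_005. The share of Ly6c1 was thus above 90% in 2 vector samples and under 20% in each circEZH2_005 sample, with vector sample 2 in between. Of the windows of Ly6c1 transcripts, 21.49% also occur in Ly6c2.

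**Figure D3:**
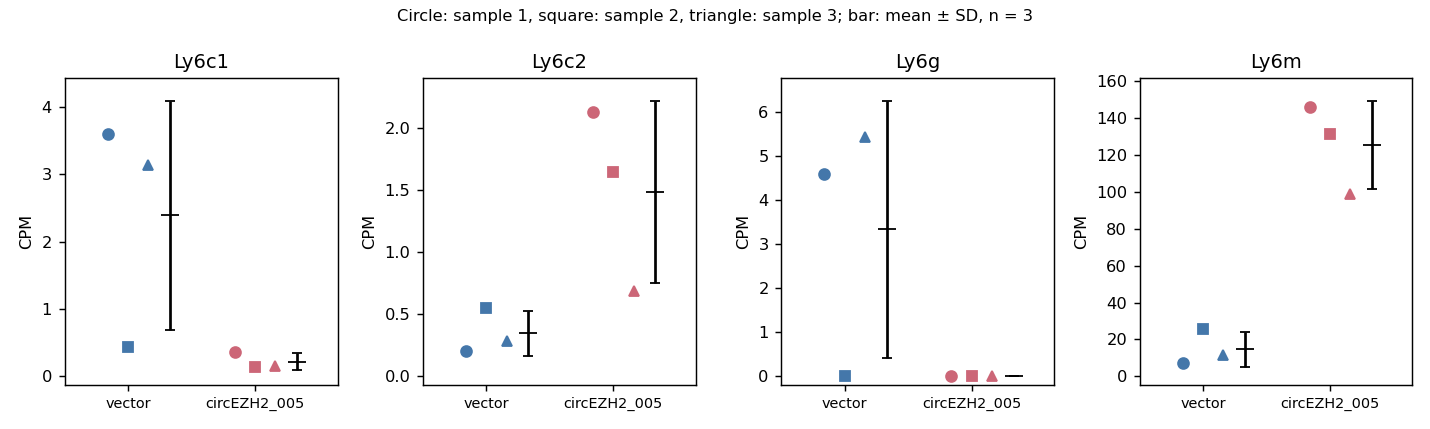
CPM of Ly6c1, Ly6c2, Ly6g and Ly6m, genes of the chromosome 15 cluster, in each sample (linear y axes that include 0; vector blue, circEZH2_005 red; circle, square and triangle for samples 1, 2 and 3; bars mean ± SD, n = 3). Ly6c1 is above 3 CPM in vector samples 1 and 3 alone, while Ly6c2 and Ly6m are higher in every circEZH2_005 sample than in every vector sample.

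Markers of monocytes, macrophages and neutrophils, cells of which many carry Ly6C, summed to between 40.7 and 50.9 CPM in vector samples and between 44.4 and 63.1 CPM in circEZH2_005 samples. Of the 10 tested, 0 passed by edgeR, 1 by DESeq2 (S100a9, named after its values were seen) and 0 by limma on either scale. DESeq2 called 13.9% of all genes, and 2 of the 10 had an unadjusted p under 0.05 by edgeR. The most abundant was Lyz2, lysozyme, with a log2 ratio of 0.18 (adjusted p = 0.859, edgeR). Endothelial markers summed to between 4.67 and 6.45 CPM in vector samples and between 6.52 and 8.39 CPM in circEZH2_005 samples. Of them Pecam1, a junction protein of endothelium that leukocytes also carry, rose by 1.93 on the log2 scale (adjusted p = 0.0377, edgeR), and without it the sums were 4.03 to 5.21 CPM with vector and 3.17 to 3.96 CPM with circEZH2_005. Esam, the most abundant, had -0.83 (adjusted p = 0.104, edgeR). Among endothelial markers, 5 of 10 had too few counts to be tested, and Emcn was at 0 in all samples but circEZH2_005 sample 1. Pecam1 passed without vector sample 2 but not when any other sample was left out (adjusted p between 0.0571 and 0.133, edgeR). Markers of fibroblasts and muscle summed to between 17.2 and 26.4 CPM with vector and between 27.9 and 46.7 CPM with circEZH2_005, and of 11 tested 0 passed by edgeR, 1 by DESeq2 and 0 by limma on either scale, with 1 at an unadjusted p under 0.05. In both cases this was Vim, the most abundant, with a log2 ratio of 1.14 (adjusted p = 0.0541, edgeR). The 1 gene by DESeq2 stands beside the same 13.9% of all genes. Without Vim the sums overlapped, at 8.95 to 10.2 CPM with vector and 4.90 to 13.9 CPM with circEZH2_005. The part of these cells in the levels of Ly6c1 was not tested.

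Promoter windows of 250 bases before to 50 after the start site are shown for this pair because the paralogs differed in direction. Windows for 4 of the 8 genes (Ly6c1, Lypd8, Plaur and Cd59a) were found in RefSeq's table (GRCm38.p6). RefSeq's table held 2 windows for each of Ly6c1 and Ly6c2, and only the first of each is shown and compared. Capitals mark runs of at least 15 bases that occur in both windows shown, which cover 35 of the 300 bases. The second windows, which lie further downstream, share a longer run than any marked here. The 35 bases therefore do not measure the likeness of the promoters.
Ly6c1, chr15:75048788-75049087, minus strand: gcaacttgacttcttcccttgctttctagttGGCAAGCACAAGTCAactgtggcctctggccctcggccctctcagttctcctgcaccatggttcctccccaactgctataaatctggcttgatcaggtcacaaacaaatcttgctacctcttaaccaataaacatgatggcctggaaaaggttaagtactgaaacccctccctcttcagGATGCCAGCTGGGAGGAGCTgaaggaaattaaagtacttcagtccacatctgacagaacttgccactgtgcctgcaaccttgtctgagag
Ly6c2, chr15:75111922-75112221, minus strand: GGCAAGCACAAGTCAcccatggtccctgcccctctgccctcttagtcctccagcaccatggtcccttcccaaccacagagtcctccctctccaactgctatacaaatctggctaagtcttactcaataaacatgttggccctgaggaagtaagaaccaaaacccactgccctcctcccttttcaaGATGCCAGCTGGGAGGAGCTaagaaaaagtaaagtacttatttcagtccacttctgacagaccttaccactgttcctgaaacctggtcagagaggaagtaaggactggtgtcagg
The windows of Ly6c1 and Lypd8 held no match to the 4 motifs searched on both strands. These were the core of the interferon-stimulated response element (GAAANNGAA, in 8.56% of 32851 mouse windows), the gamma-interferon activation site (TTCNNNGAA, 8.3%), AP-1 (TGANTCA, 7.81%) and the core of the hypoxia response element (ACGTG, 19.62%). The first of these motifs can overlap the second.

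Gml and Ly6d, the other genes of the chromosome 15 cluster among the 8, were lower in every circEZH2_005 sample than in every vector sample. Gml (chromosome 15, 74813452 to 74818815, minus strand), named for its likeness to GPI-anchored molecules, had read counts of 158, 211 and 295 with vector and of 70, 33 and 40 with circEZH2_005. The lowest vector sample was therefore at more than 2 times the highest circEZH2_005 sample. Means were 2.93 ± 0.798 and 0.627 ± 0.227 CPM (SD, n = 3 each), with a log2 ratio of -2.22 (standard error 0.35). Leaving out each sample in turn gave -2.54 at the lowest (without circEZH2_005 sample 1), and the ratio stayed under 0 each time.

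The paralog Gml2 lies head to head with Gml, its start 256 bases from the start of transcription of Gml, and had read counts of 124, 113 and 213 with vector and of 59, 19 and 12 with circEZH2_005. Its log2 ratio was -2.34 (standard error 0.57), which did not pass the threshold (adjusted p = 0.0622, edgeR), but passed with DESeq2 (adjusted p = 0.000693), with limma on log2(FPKM + 1) (adjusted p = 0.0433) and without circEZH2_005 sample 1 (adjusted p = 0.0218, edgeR). Gml took between 54.3% and 76.9% of the counts of the pair in all samples. Both genes thus had lower values with circEZH2_005, unlike the Ly6c1 and Ly6c2 pair. Gml2 also overlaps Cyp11b1 on the other strand. All windows that Gml shares with another gene are shared with Gml2.

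Ly6d (chromosome 15, 74762056 to 74763620, minus strand), known from keratinocytes and from lymphoid progenitors set on the B cell path, had read counts of 145, 165 and 226 with vector. With circEZH2_005 they were 130, 72 and 43. The gap between the groups was narrow, since circEZH2_005 sample 1 at 1.64 CPM lay close below vector sample 1 at 2.00 CPM. Means were 2.37 ± 0.463 and 1.07 ± 0.525 CPM (SD, n = 3 each), a log2 ratio of -1.15 (standard error 0.38), and without circEZH2_005 sample 1 it was -1.59.

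Seen along the chromosome, the cluster from Psca to Gpihbp1 (chromosome 15, 74714839 to 75598213, GRCm38) lists 25 genes, 20 of them on the family list. That list leaves out Ly6a2, a Ly6 gene by its name, which lies there and had at most 8 counts in a sample. Of the 14 family genes tested there, 7 had a positive and 7 a negative log2 ratio. Signs changed between neighbours: Ly6a and Ly6c2 were positive on either side of Ly6c1. Of the genes next to the 8 that lie in this cluster and are not among them, Lynx1 had a log2 ratio of 0.37 (adjusted p = 0.417) and Ly6i, the gene between Ly6e and Ly6a, 1.49 on at most 34 counts in a sample (adjusted p = 0.651, both from edgeR). Ly6k and Gm29126 had too few counts to be tested.

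**Figure D4:**
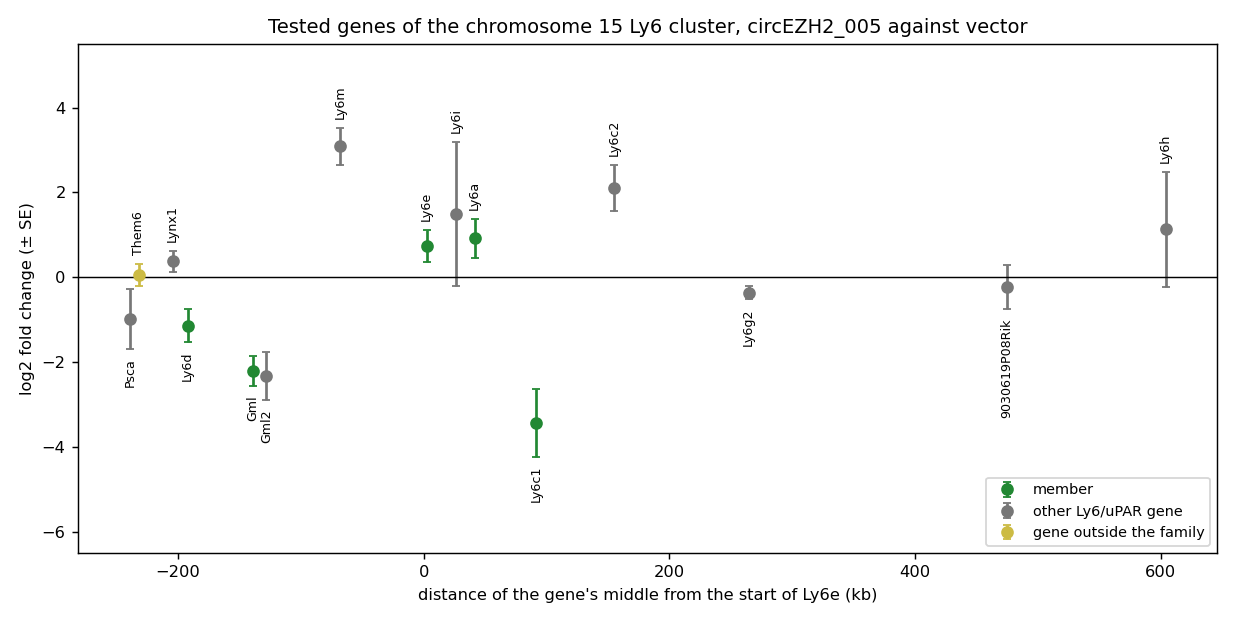
log2 ratio of circEZH2_005 against vector (points, bars for the standard error) of the tested genes in the chromosome 15 cluster, against the distance of each gene's middle from the start of Ly6e in kb. Family genes lie on both sides of 0, from -3.44 for Ly6c1 to 3.09 for Ly6m.

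Ly6m was the single gene past the threshold among the 17 other Ly6/uPAR genes tested, 1 higher and 0 lower, beside 3.67% of all genes. It lies in the cluster between Gml2 and Ly6e and had 7.39, 25.5 and 11.5 CPM with vector and 146, 131 and 99.0 CPM with circEZH2_005. The lowest circEZH2_005 sample was therefore well above the highest vector sample, which was vector sample 2. The log2 ratio was 3.09 (standard error 0.43, adjusted p = 0.0207, edgeR). It did not pass without vector sample 1 (adjusted p = 0.0615), vector sample 3 (adjusted p = 0.11) or circEZH2_005 sample 2 (adjusted p = 0.08, edgeR), with log2 ratios of 2.76, 2.93 and 3.05. The most abundant other family gene, Ly6g2, had a log2 ratio of -0.36 (adjusted p = 0.218, edgeR). Of these 17 genes, Ly6c2 and Ly6m passed without vector sample 2, beside 7.48% of all genes in that fit. With DESeq2, Gml2, Ly6c2 and Ly6m passed, beside 13.9% of all genes to which it gave an adjusted p-value. The median over the 17 genes was -0.06, beside 0.00 over all genes. Among the other 13 of the 30 listed family genes, counts were too low in too many samples for a test.

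**Figure D5:**
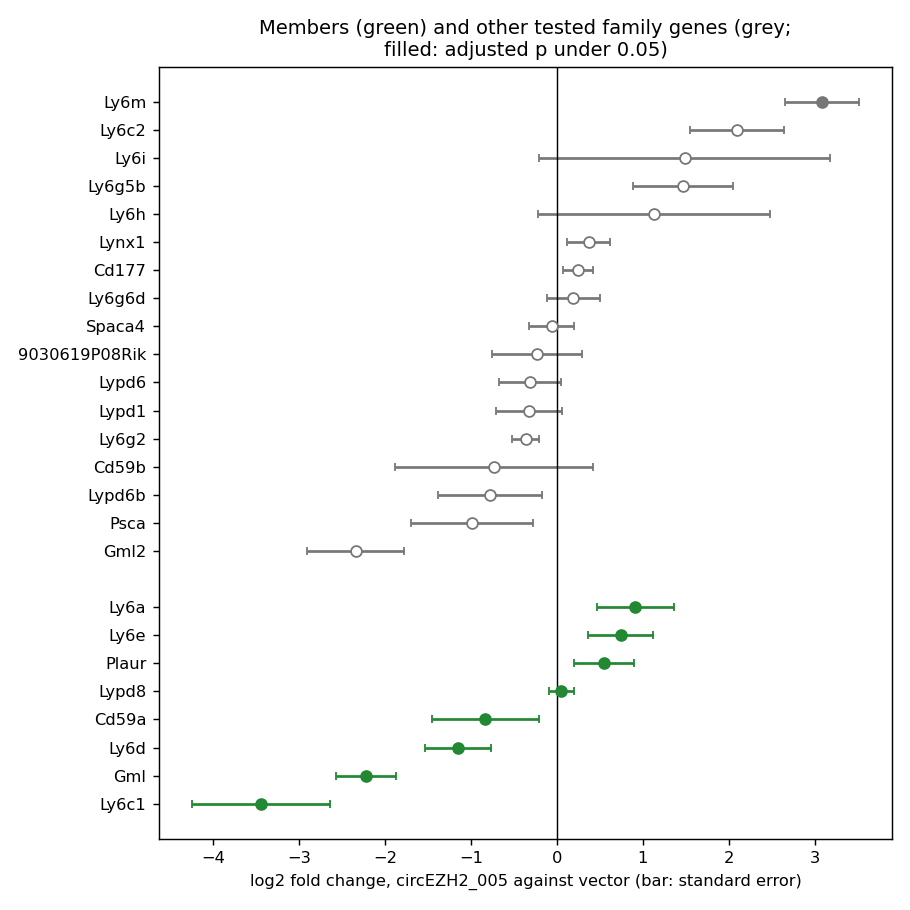
log2 ratio of circEZH2_005 against vector with its standard error for the 8 genes (green, a description without a test) and the other 17 tested Ly6/uPAR genes (grey, filled where the adjusted p was under 0.05). Ly6m at 3.09 is the only filled grey point, and values range down to -2.34 for Gml2 and -3.44 for Ly6c1.

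Plaur (chromosome 7, 24462484 to 24475968, plus strand), the receptor of urokinase, had read counts of 120, 68 and 121 with vector and of 127, 210 and 116 with circEZH2_005. Except for a low vector sample 2 and a high circEZH2_005 sample 2, the samples were alike, and the groups overlapped. Its log2 ratio was 0.55 (standard error 0.35), 0.33 without vector sample 2 and 0.23 without circEZH2_005 sample 2. Its promoter window held an AP-1 match (capitals) that begins 69 bases before the start site: cccctggagcTGACTCActctttagca. Of the other motifs the window held no match.

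Plasminogen activation, the pathway in which Plaur works, was represented by 17 tested genes. None passed the threshold by edgeR, and 4 had an unadjusted p under 0.05. DESeq2 called 1 (Serpinf2), beside 13.9% of all genes to which it gave an adjusted p-value, and limma 0 on either scale. The median log2 ratio was 0.30, beside 0.00 over all genes tested. Of the 17, 13 were positive, where 9174 of the 18348 genes tested had a positive log2 ratio. The most abundant, S100a10, which forms a plasminogen receptor with annexin A2, had a log2 ratio of 0.30 (adjusted p = 0.109, edgeR). The ligand Plau, named for this role after its values were seen, was scarce. It lay between 0.0639 and 0.390 CPM and had a log2 ratio of 0.84 (adjusted p = 0.52, edgeR). Serpinf2, an inhibitor of plasmin, was named after its values were seen.

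Cd59a (chromosome 2, 104095801 to 104115354, plus strand), which blocks the membrane attack complex of complement, had read counts of 63, 51 and 93 with vector and of 14, 26 and 73 with circEZH2_005. Samples circEZH2_005 1 and 2 were below all vector samples, and circEZH2_005 sample 3 was within their range. The log2 ratio of -0.83 (standard error 0.63) was -1.80 without circEZH2_005 sample 3 and -0.42 without circEZH2_005 sample 1. The paralog next to it, Cd59b, had at most 35 counts and a log2 ratio of -0.73 (adjusted p = 0.758, edgeR). The promoter window of Cd59a held 1 match to the core of the interferon-stimulated response element.

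Among 25 tested genes of complement and its regulators, 2 rose and 1 fell, beside 3.67% of all genes in either direction. C2, a protease of the classical pathway, rose from 18.6, 22.6 and 16.4 CPM to 41.4, 62.2 and 39.5 CPM, a log2 ratio of 1.31 (standard error 0.20, adjusted p = 0.0239, edgeR). C1ra, a protease of the first complement component, rose, with a log2 ratio of 1.13 (standard error 0.23, adjusted p = 0.0466, edgeR). Cfi, which cleaves and inactivates C3b and C4b, fell from 13.9, 8.89 and 13.7 CPM to 3.87, 3.51 and 4.05 CPM, a log2 ratio of -1.67 (standard error 0.20, adjusted p = 0.0144, edgeR). The most abundant, Cfb of the alternative pathway, had -0.25 (adjusted p = 0.292, edgeR). The median over the list was 0.19, beside 0.00 over all genes tested. C2 overlaps Zbtb12 on the other strand, whose reads may be counted with it. Without vector sample 2 the count was 5 (C1ra, C2, C4b, C4bp and Cfi), beside 7.48% of all genes in that fit. Of these, C4b and C4bp were named after their values were seen. The count was 0 without vector sample 1, vector sample 3 or circEZH2_005 sample 2. C1ra was also lost without circEZH2_005 sample 1 (adjusted p = 0.0796) or 3 (adjusted p = 0.103, edgeR).

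The GPI anchor, by which most of these proteins are held, is built and trimmed by enzymes of which 31 genes were tested. Of these, 0 rose and 2 fell, beside 3.67% of all genes in either direction. Pgap1, which removes a fatty acid from the new anchor, fell from 87.6, 46.6 and 97.0 CPM to 29.9, 25.3 and 27.8 CPM (log2 ratio -1.48, standard error 0.25, adjusted p = 0.0301, edgeR). Gpld1, a phospholipase that cuts GPI anchors, fell from 30.0, 29.0 and 30.9 CPM to 20.1, 18.9 and 21.3 CPM (log2 ratio -0.58, standard error 0.089, adjusted p = 0.0241, edgeR). In both, each circEZH2_005 sample lay below each vector sample. The most abundant gene, Tmem8, had 0.03 (adjusted p = 0.902, edgeR), and the median of the list was -0.13, beside 0.00 over all genes tested. Without vector sample 1, vector sample 3, circEZH2_005 sample 2 or circEZH2_005 sample 3, 0 of the 31 passed. Pgap1 overlaps Gm36955 and Gpld1 overlaps Mrs2, so the split of their reads is uncertain.

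Genes with the most similar pattern over the 6 samples were sought for the 7 of the 8 genes with a mean of at least 1 CPM, among 13342 others. Likeness was the root mean square difference of log2 CPM after centring each gene on its mean, so that 0 would be the same pattern. Closest to Ly6e were AW011738 (0.103) and Sumo2 (0.108), the latter with 32.6, 74.3 and 31.5 CPM with vector and 85.1, 73.6 and 60.6 CPM with circEZH2_005. For Ly6a they were 9330175E14Rik (0.180) and Xlr4b (0.189), and for Lypd8 Trim36 (0.0589) and Hus1 (0.0656). For Plaur they were Fyb2 (0.0934) and Slc46a3 (0.106), and for Ly6d Aldh1l2 (0.182) and Spag1 (0.226). The patterns of Gml and Ly6c1 were less closely matched, that of Gml by Gpr22 (0.403) and Serpinh1 (0.419) and that of Ly6c1 by Lrg1 (0.625).

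Outside the cluster, the genes next to Lypd8, Plaur and Cd59a were tested as well. Sh3bp5l and Gm12251 beside Lypd8 had log2 ratios of 0.12 (adjusted p = 0.497) and 0.01 (adjusted p = 0.985), and Cadm4 beside Plaur had -0.20 (adjusted p = 0.903, each from edgeR). Irgc1 and D430041D05Rik, the other neighbours of Plaur and Cd59a, had too few counts to be tested.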

How the data were processed

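The authors deposited, for each gene and sample, a read count without normalization and an FPKM value computed before deposition. The submitters' processing notes name cutadapt 1.9, HISAT2 2.0.4, StringTie 1.3.4d, DESeq2 and build mm10, without saying which step each served, and the counter, annotation and strand setting are not given in the sources used here. Control columns, headed as a negative control, were read as vector because the labels hold no other control, and 0 columns with values of samples went unused. Starts and ends of the 8 genes were the same in GENCODE M21 (GRCm38).

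The 8 genes and the gene lists were chosen with earlier results of these data known. Counts were filtered with filterByExpr, scaled with TMM and compared by quasi-likelihood in edgeR 4.0.16 (R 4.3.3), without covariates. The standard error of a log2 ratio was derived from it and the root of the F statistic, and p-values were Benjamini-Hochberg adjusted over all 18348 genes tested, with a threshold of 0.05. Alternatives were median-of-ratios scaling, no filter, DESeq2 1.42.0, the replicate number as a block, limma 3.58.1 on log2(FPKM + 1) or log2(FPKM + 0.1) for genes averaging 0.5 FPKM or more, and each sample left out in turn. On simulated counts in which 200 genes were shifted by a log2 ratio of 1.5, edgeR found 62% of them among 17714 genes tested, and 9.49% of its calls were unchanged genes. DESeq2 found 70.5% among 18343 genes, with 25.8% of its calls unchanged genes. The counts were drawn once from the spread that edgeR had fitted, with equal group means for all genes not shifted. Such a setting may favour edgeR, and the shares need not hold for the deposited counts.

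Genes named, besides the 8, were up to 4 past the threshold by absolute log2 ratio and the most abundant of each list, the 2 nearest in pattern to each of the 8 and their neighbours on the chromosome. Any other gene is said to be chosen after its values were seen. For Ly6c1, 1 of the 2 nearest is not reported here. A planned look at protein sequences was replaced by codons of GENCODE M21 coding sequences. Promoter windows are RefSeq's. Each group had 3 samples, and depths are given with the results.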

Additional observations from a re-analysis of the deposited data

How the results depend on the processing

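Counts of genes past the adjusted threshold depended on the fit. With DESeq2 they were 2289 over all genes, 3 of the other Ly6/uPAR genes, 1 of plasminogen activation, 5 of complement, 6 of the GPI anchor list, 7 of the interferon-stimulated genes and 3 of the 8 Ly6/uPAR genes. Without a filter on low counts they were 169 over all genes, 1 of complement, 1 of the GPI anchor list, 0 of the interferon-stimulated genes and 0 of the 8. By limma on log2(FPKM + 0.1) they were 289 over all genes and 0 of the interferon-stimulated genes, and on log2(FPKM + 1) they were 2 of the other Ly6/uPAR genes, 5 of the GPI anchor list and 0 of the interferon-stimulated genes. Leaving out each sample in turn, the lowest and highest were 28 and 1432 over all genes, 0 and 3 of the other Ly6/uPAR genes (Ly6g among the 3), 0 and 1 of plasminogen activation (Serpine2), 0 and 5 of complement, 0 and 3 of the GPI anchor list, 0 and 24 of the interferon-stimulated genes and 0 and 3 of the 8. Of the 12 named genes of other lists that passed, 0 did so without vector sample 1 or vector sample 3, 1 (Krt20) without circEZH2_005 sample 2, 4 without circEZH2_005 sample 3, 8 without circEZH2_005 sample 1 and 12 without vector sample 2. Ly6g and Serpine2 met the filter only through the group in which they were high, so their passing says nothing more. The cause of these differences was not tested, though each such fit has 1 sample fewer. Median-of-ratios scaling left each count within 1.5 times. Over the 12 alternatives (10 for Cd59a) the log2 ratios of 7 of the 8 genes kept their sign, and that of Lypd8 changed it in 4.

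With the replicate block the counts were 277 over all genes, 1 of the GPI anchor list, 10 of the interferon-stimulated genes and 0 of the 8, and 7 of the 12 named genes passed (Lgr5, Krt8, Pecam1, C1ra and Gpld1 did not). Samples of the same number deviated from their groups with correlations of -0.14, -0.02 and 0.04 over all genes for numbers 1, 2 and 3. Whether samples of the same number shared an animal, culture or batch is not given in the sources used here. With 3 samples per group these correlations cannot decide it. A count of 0 allows up to 3 counts, under which nothing can be said of the rarest genes.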

Other observations

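Ly6g, which encodes the neutrophil surface marker Ly6G and was chosen here after its counts were seen, was present in 2 vector samples alone. It had read counts of 332, 0 and 425 with vector and of 0 in each circEZH2_005 sample, where a count of 0 allows at most 3 counts, or 0.0377 to 0.0419 CPM. The filter on low counts removed it from the test. With no filter it did not pass (adjusted p = 0.178, edgeR), and DESeq2 gave an adjusted p of 0.0542. Of the 28752 genes listed, Ly6g was the only one with at least 100 counts in vector samples 1 and 3 and at most 3 in each of the other 4. These limits were set after its counts were seen, so that it stands alone is a description. Any other pair of samples had at most 1 gene with such a pattern. The same 2 samples were those high in its cluster neighbour Ly6c1, with 260 and 246 counts beside 33 in vector sample 2. Ly6f and Psca of the cluster, named after their values were seen, were also highest in them. Ly6f had 8, 0 and 9 counts with vector and 0 in each circEZH2_005 sample. Psca had 156, 20 and 142 counts with vector and 53, 30 and 77 with circEZH2_005. Of the 50-base windows of Ly6g, 0.45% occurred in a transcript of another gene.

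Levels of other genes that neutrophils carry differed. S100a8 and S100a9, which encode the calprotectin subunits and were named after their values were seen, lay between 0.361 and 1.21 CPM in vector samples and between 0.0503 and 0.296 CPM in circEZH2_005 samples, and vector sample 2, without Ly6g, had 0.361 and 0.883 CPM. Csf3r, a receptor on neutrophils, had 0.0829, 0.388 and 0.818 CPM with vector and between 0.251 and 0.282 CPM with circEZH2_005. Cd177, a neutrophil surface gene of the Ly6/uPAR family, and Itgam, an integrin of myeloid cells, were more abundant, both named after their values were seen. Cd177 lay between 10.7 and 11.7 CPM with vector and between 10.9 and 16.7 CPM with circEZH2_005, a log2 ratio of 0.25 (adjusted p = 0.454, edgeR). Itgam lay between 13.5 and 22.0 CPM with vector and between 17.9 and 25.2 CPM with circEZH2_005, a log2 ratio of 0.34 (adjusted p = 0.363, edgeR). The part of neutrophils in the counts of Ly6g was not tested.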
